A study of Mus musculus with 3 samples.

Results

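Of the genes that mark compartments of the mouse hair follicle, 8 were followed through maps of open chromatin from sorted hair follicle stem cells (HFSCs), and all 8 of 8 were found among the 21851 protein-coding genes of the annotation. The members were chosen by name, with earlier results of these data known. Cd34, Lgr5, Cdh3 and Fgf18 stood for the bulge and the hair germ, Lrig1, Lgr6 and Plet1 stood for the upper follicle, and Cd200 was placed in neither set. For each gene and library, peaks were counted from 20 kb before the start site to 20 kb after the end of the gene, by the position of their summit.

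The assay was Omni-ATAC-seq, a map of open chromatin for which the transposase Tn5 inserts sequencing adapters where DNA is not wrapped in nucleosomes. Dorsal skin of mice aged 6 months, with follicles in telogen, gave the HFSCs, gated as CD34+CD49f+Sca-1-, with no treatment. There was 1 Msx2-WT library, from wild-type mice that the study's methods name as hair cycle-matched C57BL/6J, and there were 2 Msx2-KO libraries, from mice in which a pMC1-neo cassette interrupts Msx2 in every cell of the body from the germline on. Msx2 is a homeobox transcription factor of skin and follicle. The libraries are called WT, KO1 and KO2 (Msx2-WT and Msx2-KO replicates 1 and 2) from here on. CD34, the product of a member, was part of the gate of all 3. The labels give WT another batch than KO1 and KO2, so batch cannot be told apart from genotype, and with 1 WT library nothing was tested between genotypes. No source says whether a library came from 1 animal or a pool. The peak names inside both KO lists read "cKO", and those of KO1 carry another library number than its label, so the identity of KO1 rests on the label alone. At the promoter of Msx2 itself a peak was present in every library, with 15 tags in WT, 9 in KO1 and 16 in KO2. An inserted cassette need not remove that peak, so it does not check the genotype.

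The hair follicle rests in telogen and regrows from stem cells. The bulge is the lower, permanent part of the resting follicle and holds slow-cycling stem cells, the hair germ is the small cluster of primed cells beneath it, and the isthmus and infundibulum above the bulge hold other stem cells that maintain the upper follicle and the sebaceous gland. Genes that mark these places are used to sort, trace and name follicle cells. An open promoter or enhancer is a state of chromatin that often goes with expression, but it is not a measure of RNA.

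The libraries differed in background. A tag is a sequenced end that the peak caller counted, and the commonest local background was 1.74 tags in WT, 0.476 in KO1 and 0.790 in KO2, so that the background of WT was 3.65 times that of KO1 and 2.20 times that of KO2. Read totals were not used here, and depth and signal over background cannot be told apart from these values. A region open in all libraries held a median of 23, 11 and 24 tags in that order, which is 13.2, 23.1 and 30.4 times the background, and tags were divided by these medians to give scaled tags, where 1 is the median shared region of a library. Peaks were kept when the −log10 of their q-value was above 2, which left 29817, 18518 and 37012 peaks. The lowest kept peak held 9, 5 and 6 tags, and the lowest listed peak 5, 3 and 3. Intervals below are at 95%, Poisson or binomial, on tags or, for densities, on numbers of peaks, and cover counting error only.

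**Figure D1:**
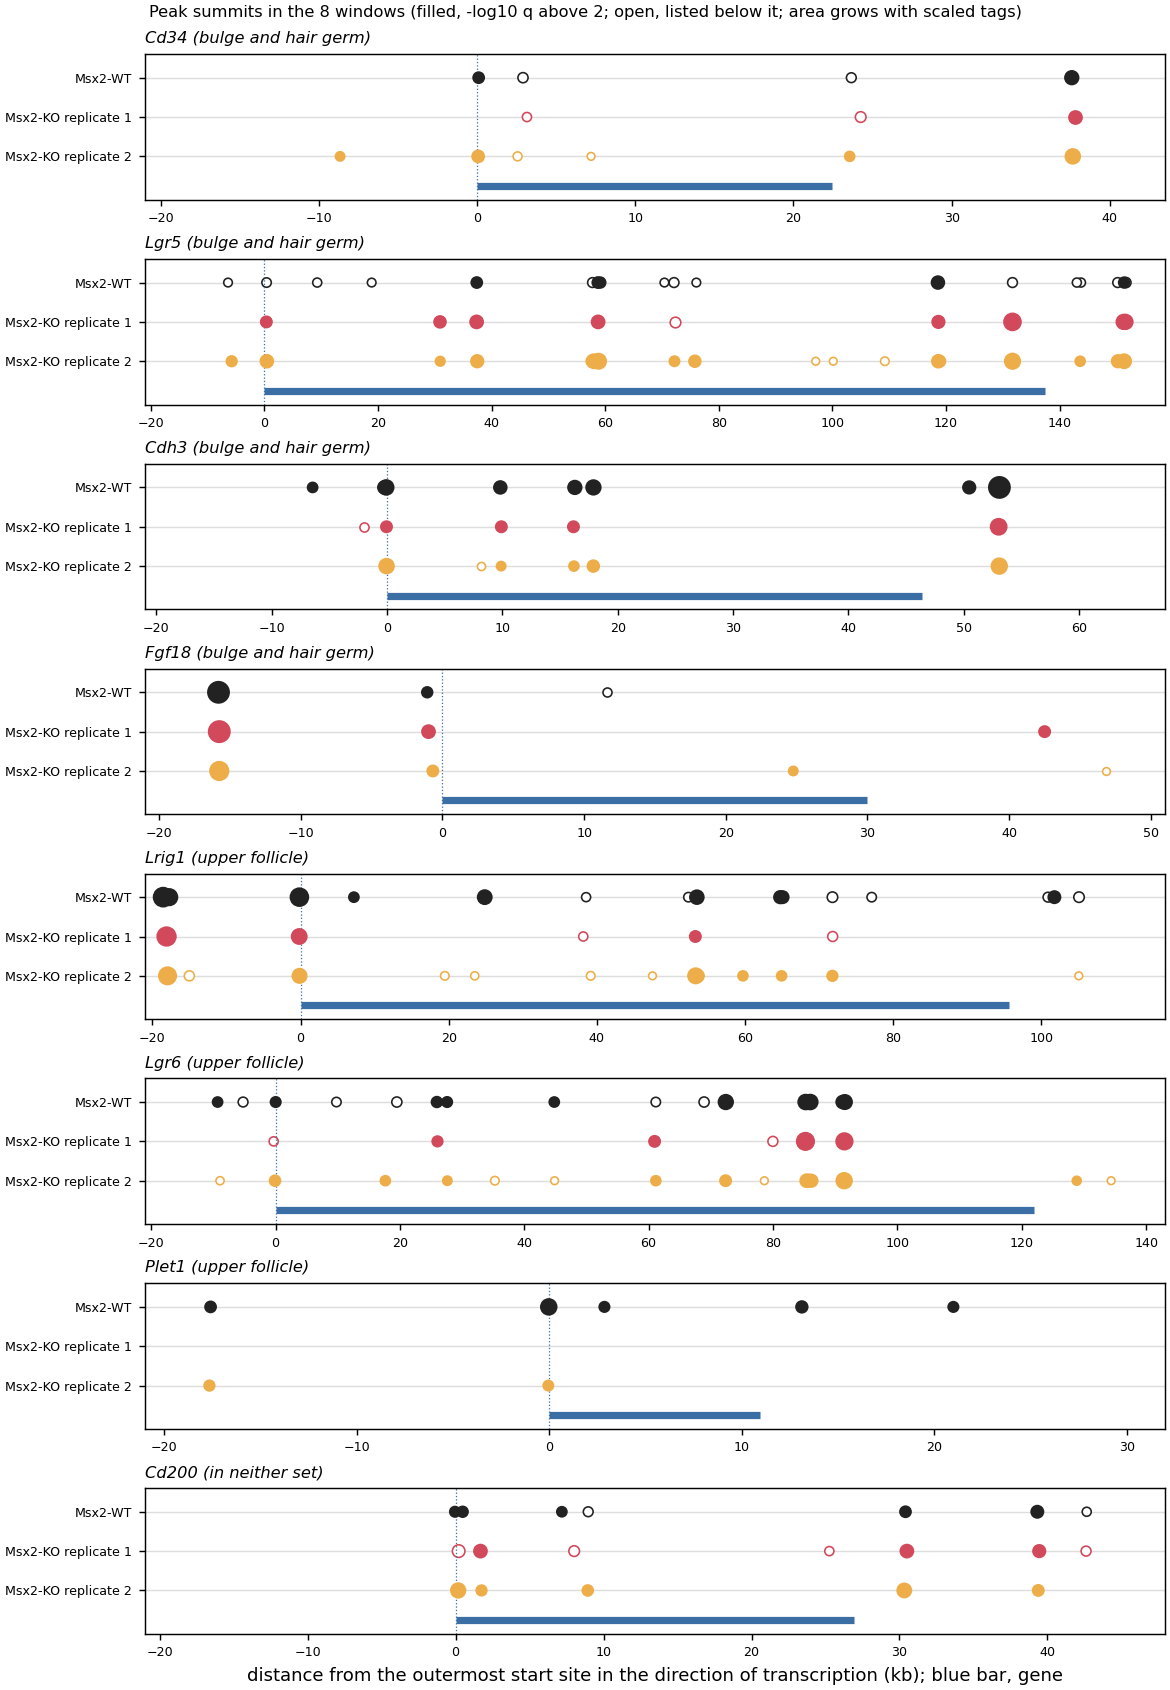
Each panel is 1 gene with 20 kb on each side, the horizontal axis is the distance from its outermost start site in kb along transcription, and each row of circles is 1 library. Filled circles are summits past the q-value limit, open circles are summits listed below it, the area grows with scaled tags and the blue bar is the gene. The Plet1 row of KO1 is empty, while Lgr5 carries 12 of the 16 listed peaks of WT below the limit.

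The windows of the 8 genes held a peak more often than those of all genes, with no allowance for gene length. In WT and KO2 all 8 windows held at least 1 peak, against 70.5% and 75% of all protein-coding genes, and in KO1 it was 7 of 8 against 60.6%. The windows held 39, 25 and 44 peaks in WT, KO1 and KO2. The densest window in WT was that of Plet1, at 0.981 peaks per 10 kb, and 2.56% of all genes had a denser one. Cdh3 followed at 0.810 per 10 kb. In KO2 the densest was Cd200 at 0.747 per 10 kb. The median over all genes was 0.194, 0.120 and 0.221 peaks per 10 kb, and the only member values under the median of their own library were those of Plet1 in KO1, at 0.

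**Figure D2:**
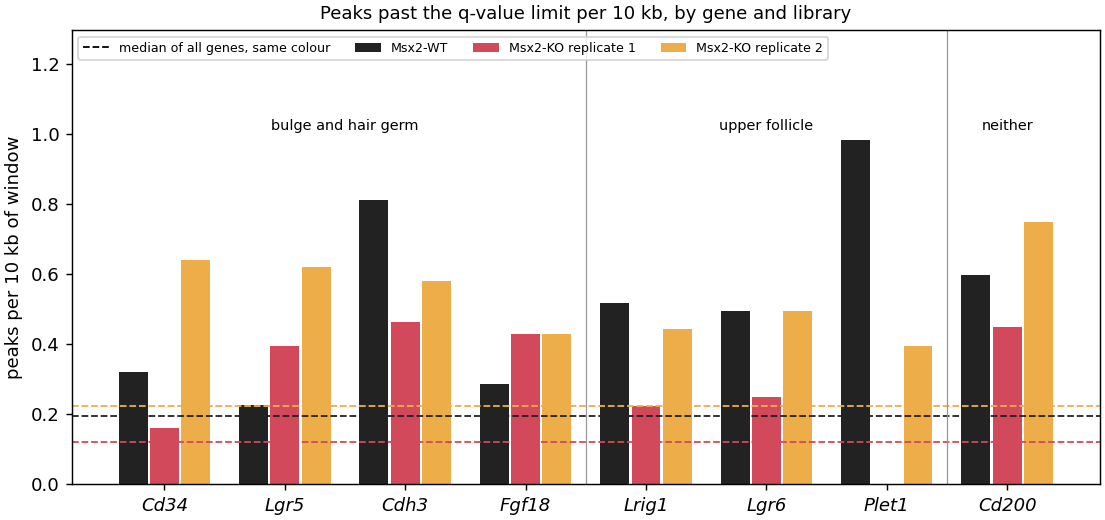
Bars give the number of peaks past the q-value limit per 10 kb of window (vertical axis) for each gene (horizontal axis) in each library, and dashed lines of the same colour give the median over all 21851 genes. Plet1 stood at 0.981 in WT, 0 in KO1 and 0.392 in KO2, and Lgr5 at 0.225, 0.394 and 0.620.

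Merging peaks that share a base gave 57 regions in the 8 windows, 26 at the bulge and hair germ genes, 25 at the upper follicle genes and 6 at Cd200. Of all 57, 29 lay in introns, 17 between genes, 8 at the promoters of the members, 2 in exons and 1 at the promoter of another gene. The 18 regions with a peak in every library had summits that lay a median of 124 bases apart, and 13 of them had all summits within 200 bases.

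Cd34 encodes the surface sialomucin by which bulge stem cells are sorted. The gene lies on the plus strand at chr1:194938819-194961279 (GRCm38), with no other protein-coding gene in its window. It had 2 peaks in WT, 1 in KO1 and 4 in KO2. The peak at its promoter held 12 tags in WT and 16 in KO2, and KO1 listed no summit there, although all 3 libraries were gated on the CD34 protein. The scaled difference between the libraries with a peak was −0.35 on the log2 scale (interval −1.57 to 0.82). The strongest region of the window lay 37.7 kb past the start, 15.2 kb beyond the end of the gene, with 21, 9 and 27 tags in WT, KO1 and KO2. The start of the non-coding gene A330023F24Rik lies 93 bases from its summit.

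Lgr5, a Wnt-potentiating receptor for R-spondins, marks the lower bulge and the hair germ. It lies on the minus strand at chr10:115450311-115587780 and, like Lgr6, had 11 regions, more than the other members. Its peaks numbered 4 in WT, 7 in KO1 and 11 in KO2. Of the 8 windows, those of Lgr5 and Fgf18 were the ones with more peaks in both KO libraries than in WT. With every listed peak the order turned, to 16, 8 and 14. The promoter had 6 tags in KO1 and 19 in KO2, both past the limit. In WT it had 7 tags with a −log10 q of 1.00, so it was listed and not kept.

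The Lgr5 window held 3 of the 4 regions of both sets with peaks in both KO libraries and none in WT. The strongest lay in intron 16 of the transcript Lgr5-201, 131.7 kb from the start site. It held 17 tags in KO1 (interval 9.90 to 27.2), 30 tags in KO2 (20.2 to 42.8), and 8 tags in WT (3.45 to 15.8) at a −log10 q of 1.63. In scaled tags this was 1.55, 1.25 and 0.348, a log2 difference of −2.15 (−3.57 to −0.86) and −1.85 (−3.18 to −0.69) between WT and the KO libraries. The region was singled out for its pattern, so these values describe it and were not tested. A second intronic region, 118.6 kb from the start, was open to a like degree in every library, with 18, 8 and 19 tags and log2 differences of 0.11 (−1.17 to 1.52) and −0.02 (−1.03 to 0.99). Past the end of the gene, at 151.3 kb, the scaled tags were 0.478, 1.09 and 1.00. That region, with 11, 12 and 24 tags, was the only one of the 18 shared regions at which WT was at least 2-fold below both KO libraries, with log2 differences of −1.19 (−2.51 to 0.12) and −1.06 (−2.24 to 0.02), whose intervals held 0.

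Cdh3 encodes P-cadherin, an adhesion protein high in the hair germ and the matrix. It lies on the plus strand at chr8:106510891-106557297. It had 7, 4 and 5 peaks in WT, KO1 and KO2. Its promoter was open in all 3, with 26, 6 and 27 tags, so the KO libraries differed from each other more than WT differed from KO2. Of the 57 regions, the strongest in WT away from any promoter lay 53.1 kb past the start and 6.68 kb beyond the gene, with 58, 15 and 31 tags. Scaled, it stood at 2.52, 1.36 and 1.29, a log2 difference of 0.89 (0.05 to 1.81) and 0.97 (0.31 to 1.64), which is just short of the 2-fold rule. Inside intron 2 the regions at 9.8 and 16.3 kb held 18, 6 and 7 tags, and 21, 6 and 9. To KO1 the scaled log2 differences were 0.52 (−0.87 to 2.14) and 0.74 (−0.61 to 2.34), with both intervals holding 0. To KO2 they were 1.42 (0.10 to 2.93) and 1.28 (0.10 to 2.59). A pair of further regions of the window, with 9 and 17 tags, were in WT alone.

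Fgf18 encodes a growth factor of the bulge that helps to hold the follicle in telogen. It lies on the minus strand at chr11:33117430-33147400. It had 2 peaks in WT and 3 in each Msx2-KO library. The largest, 15.8 kb upstream, was not its own: it lay 1 base from the start of Npm1, the gene of the abundant nucleolar protein nucleophosmin, with 58, 28 and 45 tags. The Fgf18 promoter region held 11, 9 and 13 tags, with summits at 1076, 984 and 677 bases before the start site. Weak peaks further along, of 7 and 6 tags, were each in 1 Msx2-KO library. No distal region of Fgf18 was shared by the 3 libraries.

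The bases under some of these summits are shown. For each gene this was the strongest region open in every library outside promoters and exons of protein-coding genes. Fgf18 had none. The intronic Lgr5 region of the KO libraries was added for its pattern. Non-coding genes were not screened, and the Cd34 run overlaps exons of the non-coding genes A330023F24Rik and Gm16897. Each run is 150 bases of the plus strand of GRCm38 centred on the middle summit. Capitals mark matches, on either strand, to short motifs of factors at work in skin: TGANTCA for AP-1 factors, CTTTGA for TCF/LEF factors, ATTGT for SOX factors, AGATAA for the family of GATA factors, TAATTA and separately also TAATTG for homeobox factors, TTGGCA for NFI factors, TGTTTAC for FOX factors, TGTGGT for RUNX factors, GGAATG for TEAD factors, CCGGAAG for ETS factors and CCACCC for KLF factors. No matches overlapped in the runs shown.
Cd34 +37.7 kb, chr1:194976403-194976552: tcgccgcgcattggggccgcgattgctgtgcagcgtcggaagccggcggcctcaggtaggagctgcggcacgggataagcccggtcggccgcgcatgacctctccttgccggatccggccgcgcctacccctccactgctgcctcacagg
Lgr5 +118.6 kb, chr10:115469057-115469206: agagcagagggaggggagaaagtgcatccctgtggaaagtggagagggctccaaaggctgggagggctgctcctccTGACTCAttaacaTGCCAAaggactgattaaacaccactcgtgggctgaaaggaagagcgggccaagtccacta
Lgr5 +131.7 kb, chr10:115456006-115456155: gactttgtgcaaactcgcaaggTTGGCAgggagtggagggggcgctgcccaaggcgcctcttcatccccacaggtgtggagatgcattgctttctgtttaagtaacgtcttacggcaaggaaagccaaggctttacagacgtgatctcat
Cdh3 +53.1 kb, chr8:106563890-106564039: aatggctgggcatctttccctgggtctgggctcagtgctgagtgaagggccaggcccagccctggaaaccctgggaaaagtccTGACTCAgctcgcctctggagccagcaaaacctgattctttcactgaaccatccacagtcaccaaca

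The shared Lgr5 and Cdh3 regions each held 1 AP-1 match, which 12.9% of the 6225 distal regions open in all libraries had in a run of the same length. Both Lgr5 runs held 1 NFI match, which 20.6% of those regions had. The Cd34 run held none of the 12 motifs and was 71.3% G+C, against a median of 50.7% over the distal regions. That run lies by the start of the non-coding gene A330023F24Rik, so it need not be a distal element of Cd34. A match describes the letters and does not show that a factor was bound.

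Lrig1 encodes a transmembrane protein that restrains growth factor receptors and marks stem cells of the upper isthmus. It lies on the minus strand at chr6:94604529-94700158. It had 7, 3 and 6 peaks in WT, KO1 and KO2. The promoter was open in every library, with 40, 13 and 25 tags, and so was a region 17.9 kb upstream, with 46, 21 and 39 tags. That upstream region had scaled tags of 2.00, 1.91 and 1.62, nearly level across the libraries, with log2 differences of 0.07 (−0.71 to 0.89) and 0.30 (−0.35 to 0.95). In WT alone there were 3 regions of the window. The strongest of these, in intron 1 at 24.9 kb, held 23 tags (14.6 to 34.5), which is 1.00 scaled, and neither KO library listed a summit in it. A weaker one at 101.8 kb, with 16 tags, lay over exon 8 of the neighbouring gene Slc25a26. At 7.2 kb the third had 9 tags, the lowest that the WT library kept.

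Lgr6, a relative of Lgr5 and also a receptor for R-spondins, marks cells of the isthmus above the bulge. It lies on the minus strand at chr1:134983301-135105276. Its peaks numbered 8 in WT, 4 in KO1 and 8 in KO2, out of 13, 6 and 13 listed. The outermost promoter was weak, with 10 tags in WT, 12 in KO2, and 3 in KO1 at a −log10 q of 0.534. The strongest regions lay far inside the gene. At 85.2 kb, upstream of the start of the shorter transcript Lgr6-202, the 3 libraries held 26, 18 and 20 tags, and at 91.4 kb they held 24, 16 and 31. The log2 differences between WT and the KO libraries were −0.53 and 0.44 at the first, and −0.48 and −0.31 at the second, with every interval holding 0. At 72.4 kb a region of 25 tags in WT and 13 in KO2 was missing from KO1.

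Plet1 encodes a surface protein of the upper isthmus and the duct of the sebaceous gland. It is the shortest member, on the plus strand at chr9:50494525-50505482. WT had 5 peaks there, KO2 had 2, and KO1 had none, listed or kept. With −log10 q of at least 5, or with lists of equal length, WT, KO1 and KO2 had 2, 0 and 1. Thinned to the background of KO1, which cuts the tags of WT most and does not match signal, they had 1, 0 and 1. The promoter held 30 tags in WT (20.2 to 42.8) and 10 in KO2 (4.80 to 18.4). Scaled, these were 1.30 and 0.417, a log2 difference of 1.65 (0.57 to 2.84). A region 17.7 kb upstream held 12 and 11 tags in the same libraries, a log2 difference of 0.19 (−1.12 to 1.51). The other regions, of 10, 14 and 10 tags, were in WT alone. The one of 14 tags, 13.1 kb from the start and 2.16 kb past the end of Plet1, lay 179 bases from the start of the antisense RNA gene Plet1os.

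The upper follicle runs below are the strongest distal region of Lrig1 and of Lgr6, the intronic Lrig1 and the downstream Plet1 regions of WT alone, and the 150 bases before the Plet1 start site, from the RefSeq promoter table for GRCm38, in which 6 of the 8 members were found. The runs from WT alone and the promoter run were added after their values were seen.
Lrig1 upstream, chr6:94718166-94718315: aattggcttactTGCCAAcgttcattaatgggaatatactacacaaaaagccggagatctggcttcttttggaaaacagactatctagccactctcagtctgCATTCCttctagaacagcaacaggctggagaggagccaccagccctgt
Lrig1 +24.9 kb, chr6:94675218-94675367: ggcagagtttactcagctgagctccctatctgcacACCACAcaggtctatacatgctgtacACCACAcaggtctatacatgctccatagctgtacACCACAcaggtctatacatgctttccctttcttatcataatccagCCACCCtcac
Lgr6 +91.4 kb, chr1:135013712-135013861: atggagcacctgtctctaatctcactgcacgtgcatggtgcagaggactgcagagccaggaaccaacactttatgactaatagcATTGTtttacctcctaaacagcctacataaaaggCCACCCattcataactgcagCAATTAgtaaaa
Plet1 promoter, chr9:50494375-50494524: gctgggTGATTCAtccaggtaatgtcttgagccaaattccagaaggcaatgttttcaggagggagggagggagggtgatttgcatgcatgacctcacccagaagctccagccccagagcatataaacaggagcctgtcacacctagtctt
Plet1 +13.1 kb, chr9:50507569-50507718: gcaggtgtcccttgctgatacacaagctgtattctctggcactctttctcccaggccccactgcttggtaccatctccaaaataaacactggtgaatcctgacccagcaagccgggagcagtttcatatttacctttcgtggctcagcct

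The Plet1 promoter held 1 AP-1 match, which 3.53% of the same 150 bases before all 21851 start sites had. The Lrig1 region of WT alone held 3 RUNX matches inside a short repeated unit, where 11.4% of distal shared regions had at least 1. In the Lgr6 run stood 1 match each to the SOX, KLF and TAATTG motifs, which 21.6%, 17.5% and 6.89% of the distal shared regions had. The Lrig1 upstream run held 1 NFI and 1 TEAD match, which 20.6% and 12.9% of those regions had. No motif was matched in the Plet1 downstream run.

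Cd200 encodes a surface glycoprotein that dampens immune cells and is used to enrich bulge cells. It lies on the minus strand at chr16:45382135-45409053. It had 4, 3 and 5 peaks in WT, KO1 and KO2. The promoter held 11 tags in WT and 26 in KO2, a log2 difference of −1.18 (−2.34 to −0.11), and 8 in KO1 at a −log10 q of 1.52. Downstream of the gene, regions at 30.3 and 39.3 kb were shared by all libraries, with 12, 9 and 24 tags and with 16, 8 and 13. The more distant one, open to a like degree in the 3 libraries, is shown.
Cd200 +39.3 kb, chr16:45369598-45369747: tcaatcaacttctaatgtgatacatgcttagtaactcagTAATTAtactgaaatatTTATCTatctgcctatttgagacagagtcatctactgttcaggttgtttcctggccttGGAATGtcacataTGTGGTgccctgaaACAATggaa

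This run held 1 match each to the TAATTA, TEAD, RUNX, SOX and GATA motifs, which 6.44%, 12.9%, 11.4%, 21.6% and 8.19% of the distal shared regions had. A region 1.68 kb inside the gene, with 9 and 11 tags, was in both KO libraries and not in WT.

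A promoter peak, a summit within 1500 bases of a start site, was present for 7 of the 8 genes in WT, 4 in KO1 and 8 in KO2, where 47.1%, 37.9% and 53.7% of all genes had one. The one missing in WT was Lgr5. Its pattern, a peak in both KO libraries and none in WT, was shared by 2.32% of all genes. Cdh3, Fgf18 and Lrig1 had a peak in all 3 libraries, as 35.2% of genes did. Cd34, Lgr6, Plet1 and Cd200 lacked one only in KO1, the library with the fewest peaks, as 9.64% of genes did. No member had a promoter peak in WT alone (2.11% of genes), in KO2 alone (6.5%) or in no library (43.8%).

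Ordered by scaled tags at the outermost promoter in WT, Lrig1 stood highest at 1.74 (1.24 to 2.37), then Plet1 at 1.30 (0.880 to 1.86) and Cdh3 at 1.13 (0.738 to 1.66). Below them came Cd34 at 0.522 (0.270 to 0.911), Fgf18 and Cd200 at 0.478, Lgr6 at 0.435 and Lgr5 at 0.304 (0.122 to 0.627). The intervals of the first 3 overlapped each other, as did those of the last 5, while that of Lrig1 lay above all of the last 5. In KO2 the order was Cdh3 at 1.13, Cd200 at 1.08, Lrig1 at 1.04, Lgr5 at 0.792, Cd34 at 0.667, Fgf18 at 0.542, then Lgr6 with 12 tags, and Plet1 at 0.417. All of these intervals overlapped that of Cdh3. In KO1 Lrig1 stood at 1.18, Fgf18 at 0.818, Cd200 at 0.727, Lgr5 and Cdh3 at 0.545 and Lgr6 at 0.273, with Cd200 and Lgr6 below the q-value limit.

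**Figure D3:**
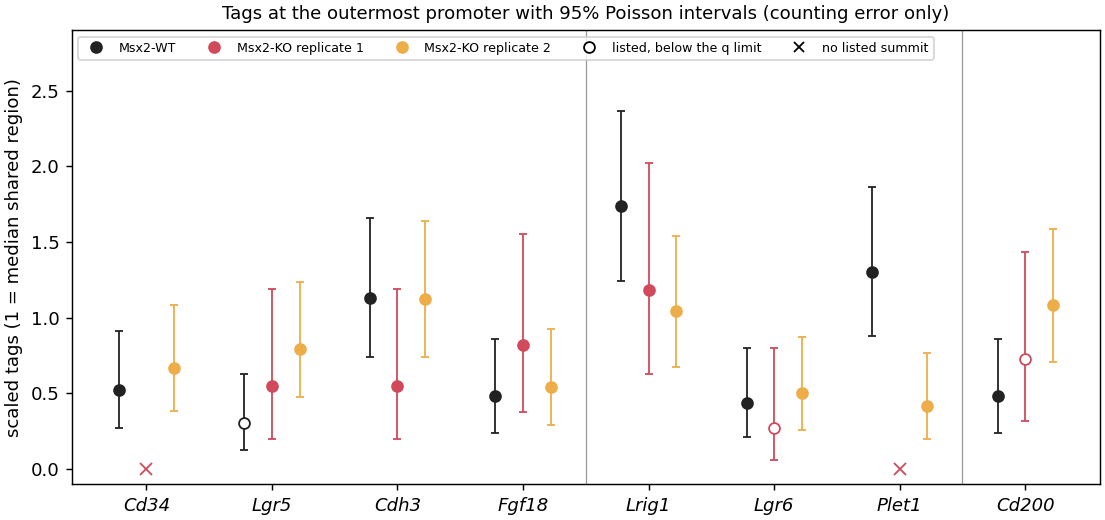
Scaled tags (vertical axis, 1 is the median shared region) at the outermost promoter of each gene (horizontal axis), with 95% Poisson intervals for each library. Open points were listed below the q-value limit and crosses drawn at 0 mark no listed summit, which is not a measured 0. Plet1 is the member whose WT interval (0.880 to 1.86) lies wholly above that of KO2, which ends at 0.766.

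Across each set, the windows of the 4 bulge and hair germ genes spanned 396.3 kb and held 15, 15 and 23 peaks in WT, KO1 and KO2. Those of the 3 upper follicle genes spanned 348.6 kb and held 20, 7 and 16. Per 10 kb this was 0.378, 0.378 and 0.580 for the bulge set against 0.574, 0.201 and 0.459 for the upper follicle set. The upper follicle genes were thus the denser set in WT and the less dense set in both KO libraries. The log2 ratio of the densities, bulge over upper, was −0.60 in WT (interval −1.67 to 0.44), 0.91 in KO1 (−0.47 to 2.45) and 0.34 in KO2 (−0.64 to 1.36). All 3 intervals held 0 and overlapped one another. They treat peaks as independent, and the turn in order between libraries was not tested. Counting only peaks whose nearest start site was the member's own gave −1.55, −0.19 and −0.51, with the upper follicle denser in every library. Thinning WT to the background of KO1 turned its value to 0.81. Thinning matches background and not signal, and left 30.4% of all genes with a promoter peak in WT, against 37.9% in KO1.

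By region, 11 of the 26 bulge and hair germ regions had a peak in all libraries, against 5 of the 25 upper follicle regions, where 27.6% of all 47562 regions did. Regions in WT alone numbered 2 of 26 and 8 of 25, against 18.7% of all regions, and those in both KO libraries and not in WT 3 of 26 and 1 of 25, against 7.66%. The 8 WT regions were spread over all 3 upper follicle genes, 3 at Lrig1, 3 at Plet1 and 2 at Lgr6. Both of the bulge set were at Cdh3. Over all 57 regions of the 8 genes, 9 were in WT and KO2 (14.4% of all regions), 12 in KO2 alone (28%), 1 in WT and KO1 (0.709%) and 1 in KO1 alone (2.85%). With all listed peaks the counts in WT alone were 7 of 39 and 13 of 43. After thinning all libraries to the local background of KO1 they were 0 of 22 and 1 of 14. Thinning cut WT most, to a promoter peak at 30.4% of all genes, below the 37.9% of KO1. Without KO1, the regions in all libraries, in KO2 and not WT, and in WT alone numbered 13, 10 and 2 of 25 for the bulge set and 11, 5 and 9 of 25 for the upper follicle set. The shares over all regions given above hold for the main setting only.

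**Figure D4:**
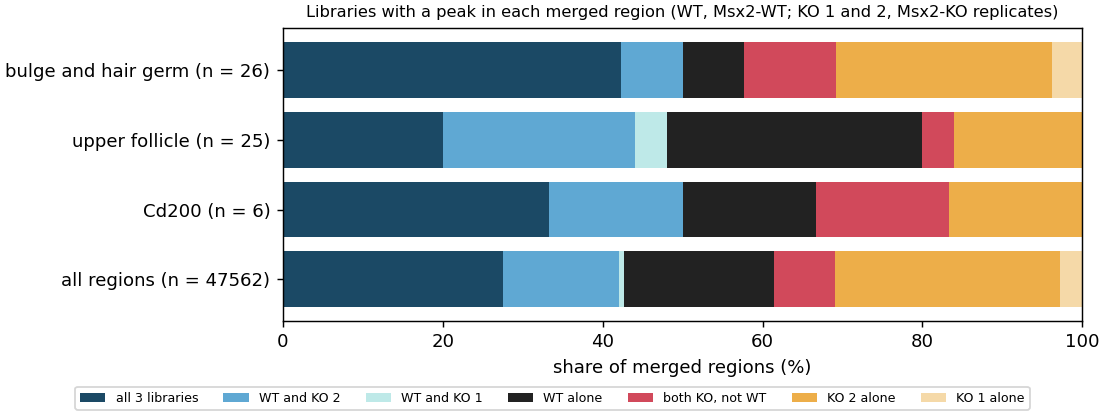
Each bar splits the merged regions of a set (vertical axis, with their number) by the libraries that had a peak, as a share in % (horizontal axis). WT alone makes up 8 of 25 upper follicle regions and 2 of 26 bulge and hair germ regions, against 18.7% of all regions.

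Strength was compared at regions that had a peak in every library. At the 18 shared member regions WT was at least 2-fold higher than both KO libraries at 0 and 2-fold lower at 1, where 3.24% and 4.86% of 13075 shared regions were called in those directions. The median log2 difference to KO1 and KO2 was 0.11 and −0.02 over the 11 bulge and hair germ regions, 0.07 and 0.30 over the 5 upper follicle regions, and −0.17 and −0.01 over all shared regions. Most intervals at single regions held 0, and differences between genes were not tested. Of the 4 shared regions at Lgr5, WT was lower than both KO libraries at 3, while at 3 of the 4 at Cdh3 it was higher than both by at least 0.52. The fourth, the Cdh3 promoter, differed by 1.05 from KO1 and by 0.01 from KO2. By direction alone, WT was lower than both KO libraries at 42.5% of the 13075 shared regions and higher than both at 34.0%. Over the 18 member regions it was lower than both at 6 and higher than both at 6.

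**Figure D5:**
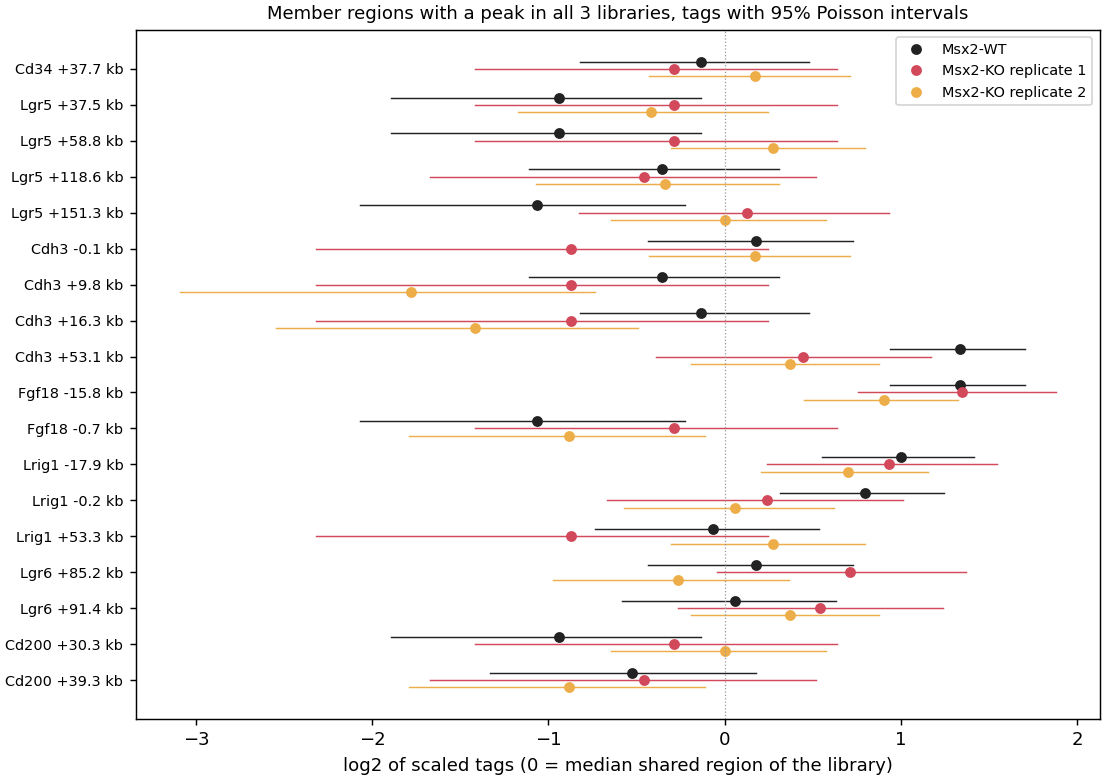
The 18 member regions with a peak in all libraries (vertical axis, named by gene and distance from the start site) and the log2 of their scaled tags (horizontal axis), with 95% Poisson intervals. Most intervals of the 3 libraries overlap, and the Cdh3 region at 53.1 kb and the Fgf18 region at the Npm1 start both stand at 2.52 scaled tags in WT.

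Promoters of further marker genes were set beside those of the members. These lists too were chosen with earlier results of these data known, so they are not an independent check. Among 8 further bulge genes (Krt15, Lhx2, Sox9, Nfatc1, Tcf7l1, Foxc1, Itga6 and Col17a1) a promoter peak was present for 6, 5 and 7 in WT, KO1 and KO2, where 47.1%, 37.9% and 53.7% of all genes had one, and the scaled tags of those listed summed to 7.17, 6.55 and 8.04. Sums here and below leave out genes with no listed summit. Among 7 further upper follicle genes (Krt79, Gata6, Gli1, Sostdc1, Krt17, Defb6 and Cst6) it was 7, 2 and 4, with sums of 7.17, 2.00 and 2.79 over the 7, 3 and 6 listed. Thinned to the background of KO1 the counts were 4, 2 and 2, and 3, 5 and 7 for the bulge list. Of all genes, 30.4%, 37.9% and 46.8% had a promoter peak after thinning. The thinned counts rest on 8 bulge and 7 upper follicle genes and on 1 random draw, and the lists were not tested against each other. Cutting the peak lists to equal length gave 6, 2 and 0, and 6, 5 and 6 for the bulge list. At equal length 39.95%, 37.89% and 41.49% of all genes had a promoter peak. The 7 genes were not alike. Krt79, a keratin of the upper follicle, had 25 tags in WT and no listed summit in either KO library. Gli1, a transcription factor of Hedgehog signalling, went the other way, with 12, 11 and 21 tags, or 0.522, 1.00 and 0.875 scaled. Sostdc1, a secreted inhibitor of BMP and Wnt signalling, had 0.913 in WT and 0.750 in KO2 and was not listed in KO1. Of 8 genes of the interfollicular epidermis (Ly6a, Krt1, Krt10, Ivl, Flg, Lor, Krtdap and Sbsn), 4, 0 and 1 had a promoter peak, with sums of 4.78, 0.455 and 1.13, and without Ly6a the suprabasal genes among them numbered 3, 0 and 1 of 7. Ly6a, which encodes the Sca-1 protein that the gate excluded, had 12 tags in WT and none listed in Msx2-KO, while Krt1 was listed in no library. The part of cells other than bulge stem cells in the Plet1, Lrig1 and Lgr6 values was not tested, and how many cells were open at a site cannot be told apart from how open each cell was.

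Leukocyte promoters (Ptprc, Cd3e, Cd3g, Cd207, Itgax and Cd52) were listed in no library, 0 of 6. Endothelial promoters had a peak for 0, 1 and 2 of 6, and those of dermal fibroblasts for 2, 1 and 3 of 6. Of the 6 melanocyte genes 3, 2 and 3 had one, with sums of 3.30, 2.91 and 2.67 scaled tags. Pmel held 25, 15 and 23 tags and Dct 19, 17 and 33, while Mitf held 27 in WT, 8 in KO2 and had no listed summit in KO1. The 3 genes of the sort (Cd34, Itga6 and Ly6a) had a promoter peak for 3, 1 and 2. Over all genes, 47.1%, 37.9% and 53.7% had a promoter peak in WT, KO1 and KO2. With every listed peak it was 58.8%, 45.3% and 61.9%.

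Base composition was set beside the promoter states, since CpG-rich promoters are open in most cells. By a rule of over 50% G+C and a CpG ratio over 0.6 in the 250 bases on each side of the start, 47.5% of genes were CpG-rich, and 75.0%, 62.0% and 83.8% of these had a promoter peak in WT, KO1 and KO2, against 21.9%, 16.2% and 26.4% of the others. All members but Cdh3 and Plet1 were CpG-rich. Cdh3, with a CpG ratio of 0.587, was just under the limit, Cd200 at 0.608 and Cd34 at 0.617 were just over it, and Plet1 stood lowest of the 8 at 0.288.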

How the data were processed

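Omni-ATAC-seq was carried out on sorted HFSCs of 3 libraries, 1 Msx2-WT and 2 Msx2-KO, grouped by their labels. Per its methods, the authors used Trimmomatic for trimming and BWA-MEM for alignment to GRCm38, and MACS2 for peaks, with no shifting model and all duplicates, after mitochondrial reads were set aside. The MACS2 version is not given in the sources used here. The deposited peak lists give a fold over local background, −log10 of the p-value and of the q-value, and the summit, with 1 list for each library. The deposited score is a whole-number form of −log10 p and was not used. The lists ran down to a p-value limit of 0.01, so peaks were kept here at −log10 q above 2. Peak names inside the Msx2-KO lists read "cKO", those of KO1 with another library number than its label, and the labels were followed.

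From the deposited fold and p-value the tags at each summit and the local background were recovered through the Poisson distribution. Read totals were not used here. Tags were divided by those of the median region with a peak in all libraries, which removes a shift shared by all regions. Regions were peaks merged where they shared a base. All 8 members are named. Described one by one are promoters, the strongest shared region, and regions of WT alone or of both KO libraries with −log10 q of at least 5; the weaker regions named beside them were chosen after their values were seen. The members and lists were chosen with earlier results of these data known. No test was run between genotypes. The scripts were tested on simulated data. Alternatives were another q limit, every listed peak, lists of equal length, tags thinned to the background of KO1, and other windows and overlaps. Further ones were tags over background without division by the shared median, and leaving out each Msx2-KO library.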

Additional observations from a re-analysis of the deposited data

How the results depend on the processing

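No paired analysis was possible because the genotypes share only replicate number 1 and no test was made between them. The density ratio of bulge over upper follicle windows kept its sign in WT under all settings but thinning, where it was 0.81. Thinning to the local background of KO1 was 1 random draw and need not equal the depths. It left 30.4% of all genes with a promoter peak in WT, against 37.9% in KO1. In the KO libraries the ratio turned with peaks nearest to the member's own start (−0.19 and −0.51), and in KO2 with every deposited peak (−0.03). In this paragraph counts of regions are given as in all libraries, in both KO libraries and not WT, and in WT alone. With −log10 q of at least 5 the bulge counts were 3, 2 and 2 and the upper follicle counts 4, 0 and 4. With every deposited peak they were 16, 1 and 7, and 8, 0 and 13. Cutting the lists to equal length gave 5, 6 and 0, and 5, 0 and 4. Thinned, they were 7, 6 and 0, and 2, 4 and 1. With 50% reciprocal overlap they were 4, 6 and 6, and 5, 1 and 12. With summits within 100 bases they were 8, 3 and 2, and 2, 1 and 14. Leaving out KO1 or KO2 gave bulge counts of 11 to 13, 4 to 10 and 2 to 4, and upper follicle counts of 6 to 11, 1 to 5 and 9 to 14. Shares over all regions under these settings are not given here, so a change at the members cannot be told apart from one of the whole lists. Members with a promoter peak in WT fell from 7 to 4 with the stricter limit, with equal lists and when thinned, and in KO1 from 4 to 2 with the stricter limit. The median log2 difference of WT over the mean of the KO libraries at shared regions was 0.04 for bulge and 0.18 for upper follicle genes. With tags over background in place of scaled tags it was −0.96 and −0.82, where the median of all shared regions was −1.08. From the deposited fold it was 0.19 and −0.17. The causes of these shifts were not tested. With 5 to 30 tags at most regions, counting error alone spans over 2-fold.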
